A study of Homo sapiens with 6 samples.

Results

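The 9 genes examined here encode the major histocompatibility complex (MHC) class I molecule and the machinery that loads it with peptide: the heavy chain genes HLA-B, HLA-C, HLA-E and HLA-F, the light chain gene B2M, the peptide transporter genes TAP1 and TAP2, the tapasin gene TAPBP, and the regulator gene NLRC5. They were chosen by function, as the rows whose symbol equals one of these names, and were 9 of the 58273 rows of the expression table. Of the 9, 8 reached 0.5 FPKM (fragments scaled to transcript length and to the library's mapped fragments) in at least 3 of the 6 libraries and were tested, while HLA-F did not. Heavy chain genes other than these 4 were not analysed here.

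Total RNA was sequenced from 3 libraries of shENO1 cells, in which a short hairpin RNA targeted the glycolytic enzyme gene ENO1, and from 3 libraries of wild type cells. Both groups were labelled Daudi, a Burkitt lymphoma line, and the series was set up to examine drug sensitivity after ENO1 knockdown. The wild type libraries carried no label of a control hairpin, and the labels name neither the hairpin sequence, the number of clones, the time after delivery nor any drug. Nothing in the labels says whether libraries of a group came from separate cultures, so the p-values below measure only the spread between these libraries, which may be technical.

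Class I heavy chains fold in the endoplasmic reticulum together with beta-2-microglobulin, the product of B2M. The TAP1 and TAP2 proteins pump peptides from the cytosol into that compartment, and tapasin bridges the transporter to an empty class I molecule until a peptide of sufficient affinity is bound. NLRC5 acts on a promoter module of X and Y boxes shared by class I genes, and interferons and NF-kappaB also raise their transcription. The Daudi line is known for lacking a functional beta-2-microglobulin protein, and transcript levels as measured here do not show whether a protein is made.

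The libraries were checked first. ENO1 was at 212, 242 and 368 FPKM in shENO1 libraries, against 927, 998 and 1747 FPKM in wild type libraries. The groups did not overlap, with a log2 fold change of -2.14 (SE 0.29) and a limma adjusted p of 0.518 over all 17870 genes tested. With the replicate number as a block, which pairs the libraries of the same number, the adjusted p of ENO1 was 0.00374. Defining B-cell markers were scarce: CD79B, BLK and FCRLA were listed at 0 in all 6 libraries, MS4A1 did not exceed 0.101 FPKM, and 4 of 12 B-cell markers, among them PAX5 and CD22, reached 1 FPKM in every library. The summed B-cell marker level was 15.4 to 18.9 FPKM in shENO1 libraries and 17.0 to 20.1 FPKM in wild type libraries. By contrast 11 of 12 myeloid markers reached 1 FPKM in every library, among them the granule protease gene CTSG and the lysozyme gene LYZ. The exception was the myeloperoxidase gene MPO, which did not exceed 0.161 FPKM. The 12 markers summed to 934 to 1484 FPKM in shENO1 libraries and 879 to 1445 FPKM in wild type libraries. The markers thus went against the Daudi label in both groups, and the cells are called by their labels, shENO1 and wild type, below. In such bulk RNA, fewer cells of a type and less RNA per cell cannot be told apart.

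**Figure D1:**
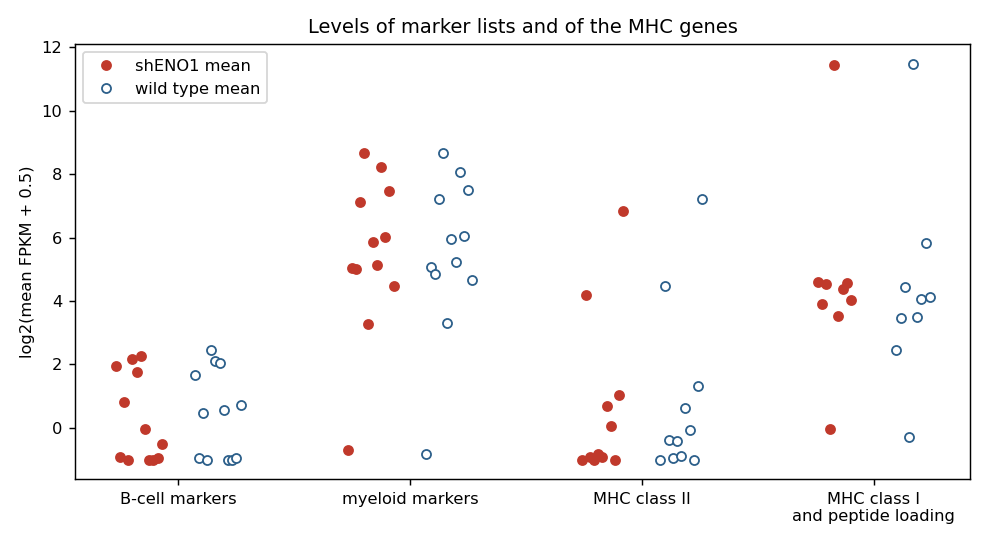
Mean level of each listed gene on a log2 scale, log2(mean FPKM + 0.5), with filled points for the mean of 3 shENO1 libraries and open points for the mean of 3 wild type libraries. Most myeloid markers lie above every B-cell marker in both groups, and B2M is the highest point among the class I genes.

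Promoter sequences are shown for 4 genes: HLA-B and TAPBP, whose levels differed most between the groups, and HLA-C and B2M, which share promoter motifs with HLA-B but had smaller fold changes. They come from RefSeq (build GRCh38.p14), in which 7 of the 9 genes had an entry. HLA-E and NLRC5 are therefore named only. The windows run 5′ to 3′ on the gene's strand and lie within the 250 bases before the annotated start, at chr6:31357226-31357361 on the minus strand, chr6:31272139-31272289 on the minus strand, chr15:44711368-44711477 on the plus strand and chr6:33314079-33314180 on the minus strand. Capitals mark matches, on either strand, to a Y box core (ATTGG), an X2 box core (TGACG), an interferon response element core (GAAA, any 2 bases, GAAA) or an NF-kappaB core (GGGA, any 4 bases, CC), and adjoining or overlapping matches form a single run of capitals. These are reference sequences and need not be the alleles of the cells.
HLA-B: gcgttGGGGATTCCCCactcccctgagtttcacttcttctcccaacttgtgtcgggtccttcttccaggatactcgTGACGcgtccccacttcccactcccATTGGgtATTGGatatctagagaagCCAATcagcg
HLA-C: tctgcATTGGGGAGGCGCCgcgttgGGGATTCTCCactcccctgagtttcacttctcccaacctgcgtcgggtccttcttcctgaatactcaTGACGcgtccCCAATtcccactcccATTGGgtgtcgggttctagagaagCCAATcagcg
B2M: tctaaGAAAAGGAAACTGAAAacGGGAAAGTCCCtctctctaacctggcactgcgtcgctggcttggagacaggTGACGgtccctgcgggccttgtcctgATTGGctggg
TAPBP: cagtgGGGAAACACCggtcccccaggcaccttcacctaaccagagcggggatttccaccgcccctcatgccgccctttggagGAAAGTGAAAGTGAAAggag

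HLA-B, HLA-C and B2M each held at least 1 Y core and 1 X2 core in these 250 bases, a combination found in 7.62% of 27305 promoters of the same length. HLA-F and TAP1 held a Y core without an X2 core, and TAP2 held an X2 core without a Y core. Each counted by itself, the Y core was in 33% of promoters and the X2 core in 21.7%. TAPBP held neither, but it held 2 overlapping interferon response cores, which began 20 and 14 bases before its start. The interferon response core was in 3.07% of promoters and was also matched in B2M, TAP1, TAP2 and HLA-F. The NF-kappaB core, in 22.1% of promoters, was matched in HLA-B, HLA-C, B2M, TAP1 and TAPBP. The letters describe the windows only, and a match is no evidence that a factor was bound. Only these exact cores were searched, so a missing match does not show that an element is absent.

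The 9 genes spanned a wide range of levels. B2M averaged 2803 FPKM over the 6 libraries, place 10 among all rows of the table, and was above every other member in all 6 libraries. TAPBP averaged 39.9 FPKM and was above HLA-E in 5 of 6 libraries. The next 6 genes lay close together, in the order HLA-E (21.9 FPKM), TAP2 (18.2 FPKM), NLRC5 (16.4 FPKM), HLA-B (14.4 FPKM), HLA-C (12.5 FPKM) and TAP1 (10.9 FPKM). Neighbours among these 6 changed places between libraries, as each was above the next in 2 to 4 of the 6, so their order is not separated by the spread. HLA-F was last at 0.402 FPKM and below every other member except HLA-B in 1 library.

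**Figure D2:**
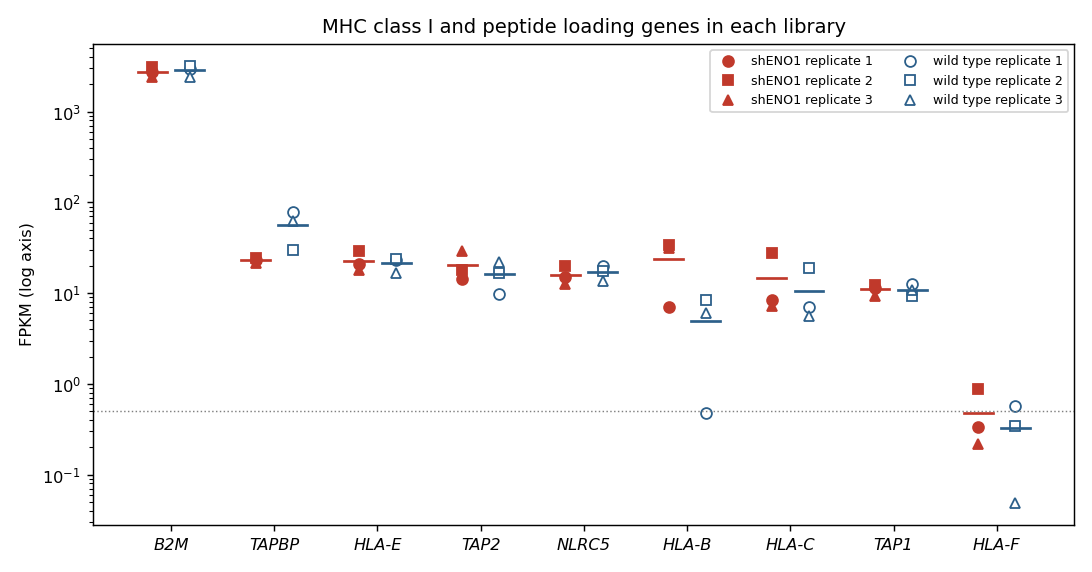
FPKM of each class I and peptide loading gene on a log axis, with filled symbols for shENO1 libraries and open symbols for wild type libraries, a symbol shape for each replicate number and horizontal lines for group means. The dotted line is the 0.5 FPKM level of the filter. TAPBP is the one gene whose groups do not overlap, and HLA-B of wild type replicate 1 stands far below the other HLA-B points.

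Across all genes, limma called 0 of 17870, or 0%, at an adjusted p under 0.05 and a fold change of more than 2-fold, and 0 of the 8 tested members were called. At an unadjusted p under 0.05 there were 2 members, HLA-B and TAPBP, beside 353 genes or 1.98% of all genes tested. Groups did not overlap for 1 of the 8, TAPBP, beside 5.99% of all genes tested. The log2 fold change was above 0 for 5 members and below 0 for 3, and the median was 0.05, against -0.0036 over all genes tested. Each member's adjusted p was 0.99986 (limma, Benjamini-Hochberg). In 3 libraries against 3 an exact permutation test of a single gene cannot go below 0.1.

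Among the heavy chains HLA-B differed most. HLA-B, which encodes a classical heavy chain that presents peptides to CD8 T cells, was at 7.10, 33.5 and 31.2 FPKM in shENO1 libraries, against 0.474, 8.47 and 5.997 FPKM in wild type libraries. Replicates 2 and 3 of shENO1 stood above every wild type library, shENO1 replicate 1 lay within the wild type range, and wild type replicate 1 was close to 0. The means were 23.9 ± 14.6 FPKM in shENO1 and 4.98 ± 4.09 FPKM in wild type (SD, n = 3 each). The log2 fold change was 2.39 (SE 0.92, 95% interval 0.23 to 4.55), on the log2(FPKM + 0.5) scale as for all fold changes below, and it did not pass the adjusted test (exact permutation p = 0.2, two-sided). Within replicate numbers 1, 2 and 3 the shENO1 level was 15.0, 3.95 and 5.20 times that of wild type. The direction was the same in 3 of 3. How many of all genes kept 1 direction in 3 of 3 was not computed, for this or any gene below. Across replicate numbers the HLA-B means ranged over 2.68 on the log2 scale, wider than the group difference of 2.39. Its highest library was 70.7 times its lowest. Without wild type replicate 1 the log2 fold change was 1.40.

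HLA-C encodes the other classical heavy chain examined, which is also a ligand of natural killer cell receptors. It was at 8.41, 28.0 and 7.22 FPKM in shENO1 libraries, against 7.08, 18.8 and 5.58 FPKM in wild type libraries. Replicate 2 was the high library in both groups, and the groups overlapped. Its log2 fold change was 0.38 (SE 0.60, 95% interval -1.03 to 1.79). The interval includes changes of more than 2-fold in either direction. Within replicate numbers the shENO1 level was 1.19, 1.49 and 1.29 times that of wild type.

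HLA-B and HLA-C lie side by side on chromosome 6, and their annotated spans overlap. In the GENCODE 29 annotation (GRCh38) HLA-B covers chr6:31269491-31357188 on the minus strand and HLA-C covers chr6:31268749-31272130 on the same strand. The overlap is due to 1 of 10 HLA-B transcripts, which reaches over HLA-C. Between the transcripts of the 2 genes little sequence is shared: 2.48% of the 50-base stretches of HLA-B occur in HLA-C and 2.87% of those of HLA-C occur in HLA-B, and at the read length of 150 bases 0% do in either direction. With any other gene, HLA-B shared 17.8% of its 50-base and 11.2% of its 150-base stretches, and HLA-C shared 5.70% and 0%. The sources used here do not say how fragments from shared stretches were divided. The stretches come from reference transcripts, which need not be the alleles of the cells. Whether reads were lost or given to another HLA gene for that reason was not tested. The limit applies to all HLA levels here, and to the shares and ratios made from them. The sum of HLA-B and HLA-C, computed after the values were seen, was 15.5, 61.5 and 38.4 FPKM in shENO1 libraries, against 7.56, 27.2 and 11.6 FPKM in wild type libraries. Replicate 1 of shENO1 lay between wild type replicates 3 and 2, so the sums overlapped as well. The sum in shENO1 was 2.05, 2.26 and 3.32 times that of wild type within the replicate numbers (exact permutation p = 0.2, two-sided).

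The nonclassical heavy chains had smaller differences. HLA-E, whose product presents leader peptides of other class I chains to natural killer cells, was at 20.9, 29.03 and 18.0 FPKM in shENO1 libraries, against 23.4, 23.9 and 16.5 FPKM in wild type libraries. Replicate 2 of shENO1 was the highest library and wild type replicate 3 the lowest, and the other libraries of the groups overlapped. Its log2 fold change was 0.08 (SE 0.23, 95% interval -0.45 to 0.61). HLA-F, a heavy chain that can reach the surface without peptide, was at 0.337, 0.887 and 0.216 FPKM in shENO1 libraries, against 0.576, 0.346 and 0.0485 FPKM in wild type libraries. These levels lie near or below the filter and were not tested. The antisense gene HLA-F-AS1, which overlaps HLA-F, was at 0.740 to 3.43 FPKM in shENO1 libraries and 1.19 to 4.03 FPKM in wild type libraries. The sources used here do not say whether counting used strand, so the reads of the pair cannot be told apart.

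**Figure D3:**
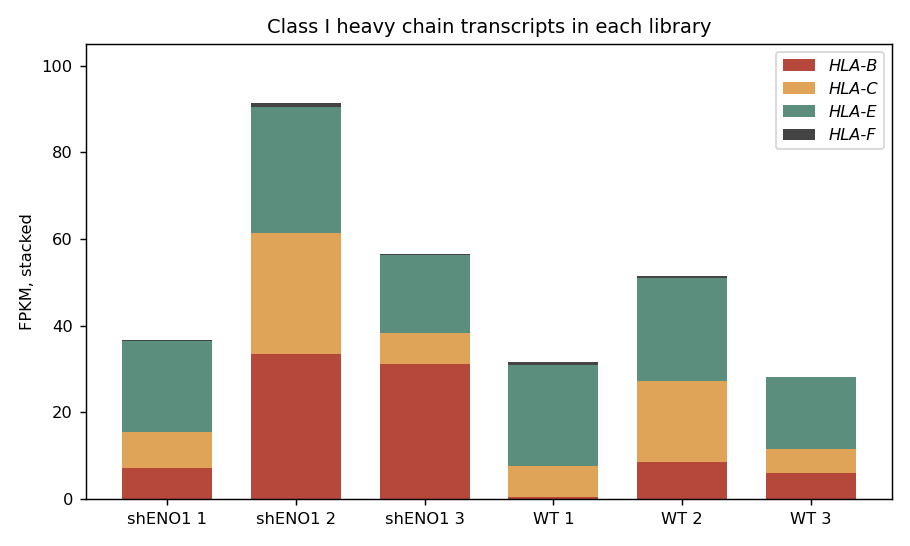
Stacked FPKM of the 4 heavy chain genes examined, with shENO1 libraries to the left of wild type (WT) libraries. The summed level is 36.7, 91.4 and 56.6 FPKM in shENO1 and 31.5, 51.4 and 28.1 FPKM in wild type, and the HLA-B segment is the one that varies most.

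The makeup of the heavy chain transcripts varied with HLA-B. HLA-B made up 19.3%, 36.7% and 55.1% of the summed FPKM of the 4 genes in shENO1 libraries, against 1.504%, 16.5% and 21.3% in wild type libraries. HLA-E made up 56.8%, 31.8% and 31.8% in shENO1 libraries, against 74.2%, 46.4% and 58.7% in wild type libraries. Each HLA-E share was lower in shENO1 than in the wild type library of the same number, while the HLA-E level itself was lower in number 1 only.

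The light chain gene B2M was nearly level between the groups. It was at 2766, 3106 and 2408 FPKM in shENO1 libraries, against 2925, 3199 and 2415 FPKM in wild type libraries. Replicate 2 was the highest and replicate 3 the lowest in both groups. Within replicate numbers 1, 2 and 3 B2M in shENO1 was 0.945, 0.971 and 0.997 times that in wild type, so number 3 was level. The log2 fold change was -0.04 (SE 0.16, 95% interval -0.42 to 0.33), so these libraries could not separate a change of this size from 0. With quantile normalization the sign of this small value turned, at 0.017. None of the 50-base stretches of B2M transcripts occurs in a transcript of another gene.

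The ratio of B2M to the summed heavy chains was formed within each library. On the log2 scale it was 6.23, 5.09 and 5.41 in shENO1 libraries, against 6.54, 5.96 and 6.42 in wild type libraries. In every library B2M was thus far above the 4 heavy chain genes together. The ratio averaged 5.58 ± 0.59 in shENO1 and 6.31 ± 0.31 in wild type (SD, n = 3 each), a difference of -0.73 (exact permutation p = 0.2, two-sided). Without shENO1 replicate 2 the difference was -0.48. Against HLA-B and HLA-C only, the difference was -1.36.

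Both transporter genes had overlapping groups. TAP1, which encodes 1 of the 2 transporter subunits, was at 11.5, 12.2 and 9.21 FPKM in shENO1 libraries, against 12.5, 9.23 and 10.9 FPKM in wild type libraries. No group was above the other, and the log2 fold change was 0.01 (SE 0.18, 95% interval -0.42 to 0.45). TAP2, the other subunit, was at 14.3, 18.0 and 28.8 FPKM in shENO1 libraries, against 9.67, 16.8 and 21.8 FPKM in wild type libraries. In both groups replicate 1 was the lowest and replicate 3 the highest, and within each number the shENO1 library was the higher one. The log2 fold change of TAP2 was 0.34 (SE 0.35, 95% interval -0.48 to 1.17), and the groups overlapped. The immunoproteasome gene PSMB9 and PSMB8-AS1 overlap TAP1 on the opposite strand. The gene AL669918.1 overlaps TAP2 on the same strand, and 31.3% of the 50-base and 29.5% of the 150-base stretches of TAP2 transcripts also occur in a transcript of another gene.

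The log2 ratio of TAP1 to TAP2 was -0.31, -0.56 and -1.65 in shENO1 libraries, against 0.37, -0.86 and -1.01 in wild type libraries. The difference of the means was -0.34, with overlapping groups (exact permutation p = 0.6, two-sided). The listed levels of the 2 subunit genes therefore did not keep a fixed ratio from library to library. The part of overlapping genes and shared sequence in this was not tested.

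TAPBP encodes tapasin, the chaperone that joins the transporter to class I and edits the bound peptides. It was at 23.3, 24.5 and 21.7 FPKM in shENO1 libraries, against 78.0, 29.8 and 61.9 FPKM in wild type libraries. All shENO1 libraries lay below all wild type libraries. The shENO1 libraries were close to each other, whereas the wild type libraries were spread, with replicate 2 near the shENO1 level. The means were 23.2 ± 1.44 FPKM in shENO1 and 56.5 ± 24.5 FPKM in wild type (SD, n = 3 each). Its log2 fold change was -1.16 (SE 0.33, 95% interval -1.94 to -0.39), which did not pass the adjusted test (exact permutation p = 0.1, the smallest that 3 against 3 allows). Within replicate numbers 1, 2 and 3 the shENO1 level was 0.299, 0.823 and 0.350 times that of wild type. With libraries weighted by their quality the log2 fold change was -0.69. No other gene of the annotation overlaps TAPBP.

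NLRC5, the class I transactivator, was at 14.9, 19.7 and 12.5 FPKM in shENO1 libraries, against 20.05, 17.7 and 13.5 FPKM in wild type libraries. It was lower in shENO1 in 2 of 3 replicate numbers and higher in number 2. Its log2 fold change was -0.13 (SE 0.22, 95% interval -0.65 to 0.39), with overlapping groups. None of the 50-base stretches of NLRC5 transcripts occurs in another gene.

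**Figure D4:**
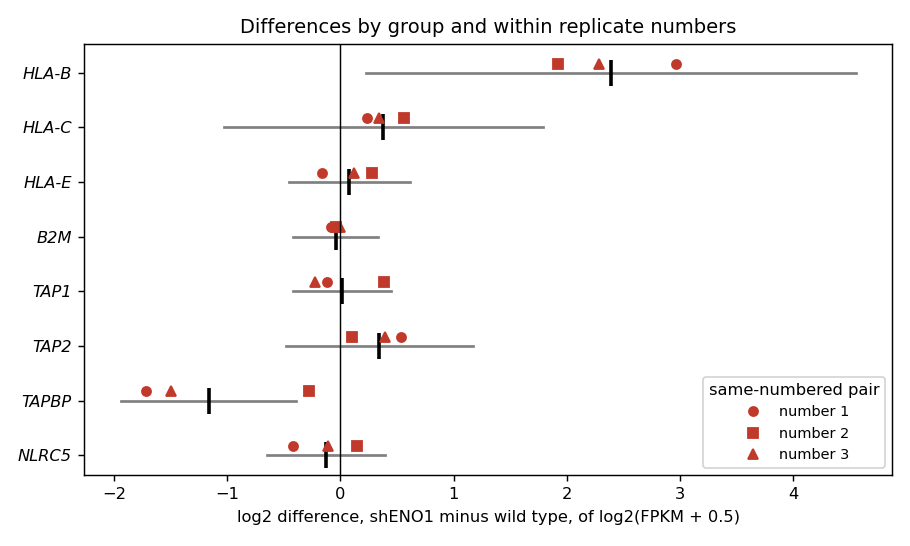
Log2 difference, shENO1 minus wild type, for the 8 tested genes, with the black mark for the fitted value, the grey line for its 95% interval and symbols for the 3 same-numbered pairs. The intervals of HLA-B and TAPBP lie on either side of 0 without reaching it, before adjustment for the number of genes tested.

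For 7 of the 8 tested members, all but TAPBP, the means of the replicate numbers ranged more widely than the groups differed. The fit was repeated within replicate numbers. With the replicate number as a block, 4 of the 8 members had an unadjusted p under 0.05 (limma), beside 7.55% of all genes tested, and 0 were called. These were HLA-B (unadjusted p = 7.16e-05, adjusted p = 0.210), TAPBP (unadjusted p = 0.00834), HLA-C (unadjusted p = 0.0161) and TAP2 (unadjusted p = 0.0240). The block rests on 2 residual degrees of freedom. It also rests on a pairing by number that no label states and that was taken from these same values, so its p-values may be too small.

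**Figure D5:**
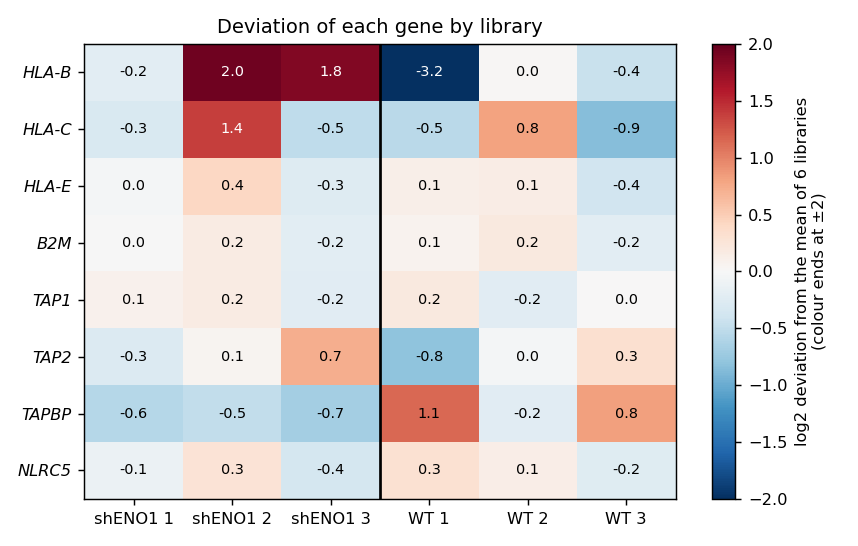
Deviation of each tested gene from its own mean over the 6 libraries, as log2(FPKM + 0.5), with shENO1 libraries left of the line and wild type (WT) libraries right of it. Replicate 2 of shENO1 is above the mean for every gene except TAPBP, and the rows of HLA-B and TAPBP have opposite signs in shENO1 replicates 2 and 3.

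The members did not vary as a unit. Over the 6 libraries, Pearson's r with the mean standardised profile of the 8 tested members, which includes the gene itself, was 0.95 for HLA-E, 0.89 for HLA-C, 0.85 for NLRC5 and 0.83 for B2M. It was 0.43 for TAP1, 0.16 for HLA-B, -0.11 for TAPBP and -0.33 for TAP2. Outside the members, the genes of at least 5 FPKM most like this profile were ZFP90 (r = 0.99), TPMT (r = 0.99), AC109326.1 (r = 0.99), AC011944.2 (r = 0.98) and SIGLEC17P (r = 0.98). The 6 libraries share 2 groups and 3 replicate numbers, so these values describe the libraries and carry no test.

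Genes that supply and load peptides beside the 9 were compared in the same fit. Of 14 supply and loading partners 0 were called and 0 had an unadjusted p under 0.05, and their log2 fold changes lay between -0.19 and 0.24. PSMB9, an immunoproteasome subunit, was at 30.7 ± 4.36 FPKM in shENO1 and 26.2 ± 6.09 FPKM in wild type (log2 fold change 0.24, SE 0.20). PSMB10, another such subunit, had a log2 fold change of 0.17 (SE 0.24), and PDIA3, a disulfide isomerase of the loading complex, one of 0.12 (SE 0.26). Of these 14 genes 7 lay above 0 and 7 below.

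Among 17 regulators of class I transcription 0 were called and 0 had an unadjusted p under 0.05. EZH2, a histone methyltransferase that can silence class I genes, was at 28.5 ± 7.47 FPKM in shENO1 and 22.2 ± 5.83 FPKM in wild type (log2 fold change 0.36, SE 0.26). NFYA, a subunit of the factor that binds the Y box, had a log2 fold change of -0.15 (SE 0.13). CREB1, a factor of the X2 box, had one of -0.18 (SE 0.16). In the limma fit with the replicate block EZH2 (unadjusted p = 0.00756) and CREB1 (unadjusted p = 0.0442) were below 0.05. These were 2 of 17, beside 7.55% of all genes tested, and 0 of the 17 were called.

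Interferon-stimulated genes were low or level. Of 16 listed, 10 were tested, and by limma 0 were called and 0 had an unadjusted p under 0.05. IFIT1, which binds foreign RNA ends, was at 1.16 ± 0.54 FPKM in shENO1 and 0.861 ± 0.316 FPKM in wild type. The ubiquitin-like modifier gene ISG15 was at 16.3 ± 2.41 FPKM in shENO1 and 15.1 ± 1.10 FPKM in wild type, and OAS1, a sensor of double-stranded RNA, was at 3.75 ± 1.26 FPKM in shENO1 and 3.43 ± 1.27 FPKM in wild type. Their log2 fold changes were 0.25 (SE 0.35), 0.10 (SE 0.16) and 0.12 (SE 0.35). The median over the 10 was 0.07.

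Of 9 class I-like genes 4 were tested, 0 were called by limma and 0 had an unadjusted p under 0.05. CD1D, which presents lipids to natural killer T cells, was at 4.96 ± 0.56 FPKM in shENO1 and 3.96 ± 0.70 FPKM in wild type without overlap (log2 fold change 0.30, SE 0.20). FCGRT, the heavy chain of the neonatal Fc receptor and a partner of beta-2-microglobulin, had a log2 fold change of -0.16 (SE 0.17). MR1, which presents vitamin B metabolites, had one of 0.05 (SE 0.24). The stress ligand genes ULBP1, ULBP2 and ULBP3 were listed at 0 in all 6 libraries.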

How the data were processed

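RNA of 6 libraries (3 shENO1, 3 wild type) was sequenced as 150-base read pairs. The deposited table holds FPKM values per gene, which the authors made with STAR and Cuffnorm from Cufflinks on GRCh38, per the labels. Tool versions and read depth were not given in the sources used here, and since FPKM are not counts no count test was run. Of the 58273 rows, 58010 were found in GENCODE release 29, from which positions were taken.

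Genes with at least 0.5 FPKM in at least 3 libraries were tested on log2(FPKM + 0.5) by limma (version 3.58.1, R version 4.3.3), letting the prior variance follow intensity. Benjamini-Hochberg adjustment was over 17870 genes, and a gene was called at an adjusted p under 0.05 and an absolute log2 fold change over 1. Single values were compared by exact two-sided permutation (scipy 1.17.1). The fit was tested on simulated data with independent noise, in which only genes of small spread were changed. That test does not show whether changes in genes as spread as HLA-B would be found.

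Deviations of same-numbered libraries from their group means correlated at 0.31, 0.18 and 0.49 for numbers 1, 2 and 3. Between libraries of different numbers the correlations ran from -0.39 to 0.14. The highest of these, for shENO1 replicate 2 with wild type replicate 1, was close to the 0.18 of number 2. Deviations within a group of 3 sum to 0, so positive same-number values force lower values between different numbers. That contrast is therefore partly fixed by arithmetic. The numbers come from the sample titles, but that a shared number marks a pair was taken from these values, not from a label.

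The members and lists were chosen with earlier results of these data known. The list of class I-like genes was shortened after the values had been seen, when further heavy chain genes and relatives were taken out, so its counts support nothing. The HLA-B and HLA-C sum, the checks of overlapping and shared sequence and the promoter motifs and windows were also chosen after the values were seen. Genes named outside the members were ENO1, the 3 tested genes with the smallest p in each list and the 5 genes most like the members' mean profile, together with further marker and class II genes, examples of 0 values and genes that overlap a member, which were chosen after their values were seen.

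Alternatives were other pseudocounts, filters and scalings, the replicate block, no trend, library weights, leaving out each library or both numbered 3, and the ratio to HLA-B and HLA-C only.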

Additional observations from a re-analysis of the deposited data

How the results depend on the processing

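Of the 8 tested members, HLA-B, TAP2 and TAPBP kept their direction under all 17 alternatives. Their ranges were 1.40 to 3.09, 0.03 to 0.59 and -1.57 to -0.69 on the log2 scale. The other filters, the replicate block and the fit without a trend could not change these estimates. Direction under those settings was therefore fixed in advance. No member was called under any alternative (lowest limma adjusted p 0.210, for HLA-B with the replicate block). Members at an unadjusted p under 0.05 (limma) numbered 1 without the filter, beside 743 of all 28235 genes tested. They numbered 1 with library weights (1454 of 17870 genes) and 4 with the replicate block (1349 of 17870 genes). With both libraries numbered 3 left out they numbered 0 (816 of 17000 genes). With a library left out they numbered 1 to 2, beside 267 to 681 of all genes tested. Leaving out a library gave 1 to 3 members without overlap between groups (3 without wild type replicate 2). Smaller groups overlap less readily, and the share of all genes without overlap was not computed for these fits. The median log2 fold change over the members was -0.12 (without shENO1 replicate 2) to 0.11 with a library left out.

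Over all genes, 1 was called with the replicate block, 4 with library weights and 1 with both libraries numbered 3 left out. ENO1 then passed, at -2.14, -2.08 and -2.08. The block changed no other call.

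Small values changed sign. B2M was 0.017 with quantile normalization and -0.16 to 0.052 with a library left out. The corresponding ranges were -0.095 to 0.13 for TAP1, -0.21 to 0.88 for HLA-C, -0.11 to 0.23 for HLA-E, -0.30 to 0.021 for NLRC5 and -0.61 to 0.09 for the TAP1 to TAP2 ratio. The difference in the B2M ratio kept its sign, at -1.06 (without shENO1 replicate 1) to -0.48 (without shENO1 replicate 2). The difference in the B2M ratio was -1.36 against HLA-B and HLA-C only. The cause of these changes was not tested. Read depth is unknown, so the counting error of low genes such as HLA-F and of HLA-B in wild type replicate 1 is not known.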

Other observations

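MHC class II molecules present peptides of extracellular origin. Most of the 11 genes listed for them, which include loading genes, were low or absent, with HLA-DRB1 and CD74 as exceptions. HLA-DRA, the alpha chain gene of HLA-DR, was listed at 0 in all 6 libraries. HLA-DRB1, the beta chain gene of the same molecule, was at 13.9, 22.7 and 16.4 FPKM in shENO1 libraries, against 13.5, 32.7 and 18.5 FPKM in wild type libraries. The beta chain genes HLA-DPB1 and HLA-DQB1 reached at most 0.0465 and 0.109 FPKM. For the alpha chain genes HLA-DPA1 and HLA-DQA1 the highest values were 0.765 and 0.613 FPKM. HLA-DOB, a subunit of a class II loading regulator, was at 1.49, 1.43 and 1.77 FPKM in shENO1 libraries, against 1.95, 2.06 and 1.90 FPKM in wild type libraries, without overlap (log2 fold change -0.26, SE 0.21). CD74, the invariant chain of class II, was at 121, 133 and 85.8 FPKM in shENO1 libraries, against 144, 187 and 113 FPKM in wild type libraries. CD74 was lower in shENO1 within each replicate number, with overlapping groups and a log2 fold change of -0.38 (SE 0.23). Of 11 class II genes 5 were tested, and by limma 0 were called and 0 had an unadjusted p under 0.05. With the replicate block 1 did, CD74, beside 7.55% of all genes tested.

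Most markers of other cell types were low, but some were not. NKG7 averaged 61.1 FPKM in shENO1 and 68.8 FPKM in wild type. NCAM1 averaged 23.5 FPKM in shENO1 and 18.5 FPKM in wild type, and PECAM1 19.0 FPKM in shENO1 and 18.1 FPKM in wild type. Of 10 T-cell markers 1, CD5, reached 1 FPKM in every library (log2 fold change 0.0029, SE 0.26), CD2 had a log2 fold change of 0.28 (SE 0.39), and the list summed to 2.63 to 2.90 FPKM in shENO1 libraries and 2.03 to 2.78 FPKM in wild type libraries. Of 9 natural killer cell markers 3 did, NCAM1, KLRF1 and NKG7, with sums of 80.6 to 99.2 FPKM in shENO1 libraries and 78.6 to 108 FPKM in wild type libraries, while NCR1 and KLRD1 were listed at 0. Of 8 epithelial and stromal markers 1, PECAM1, did (log2 fold change 0.07, SE 0.17), COL1A1 was at 0.626 ± 0.259 FPKM in shENO1 and 1.32 ± 0.894 FPKM in wild type, and the list had sums of 18.4 to 21.8 FPKM in shENO1 libraries and 16.8 to 21.0 FPKM in wild type libraries. By limma 0 markers of these 3 lists were called and 0 had an unadjusted p under 0.05. With the replicate block 0 were called, and 2 natural killer cell markers had an unadjusted p under 0.05 (limma), beside 7.55% of all genes tested. They were NCAM1 (0.00567, log2 fold change 0.35) and NKG7 (0.0499, log2 fold change -0.17, without overlap between the groups). Their part in the class I values was not tested.

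Among the B-cell markers, CD22 was at 3.999 ± 0.71 FPKM in shENO1 and 5.005 ± 0.083 FPKM in wild type without overlap (log2 fold change -0.30, SE 0.19), and PAX5 and CD79A had log2 fold changes of -0.33 (SE 0.25) and 0.37 (SE 0.33). Among the myeloid markers, CD33, FCER1G and PRTN3 had log2 fold changes of -0.08 (SE 0.15), -0.12 (SE 0.27) and 0.20 (SE 0.47). By limma 0 markers of both lists were called and 0 had an unadjusted p under 0.05. With the replicate block 0 were called and 1, LYZ, was below 0.05 (limma unadjusted p = 0.0245), beside 7.55% of all genes tested.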
